A study of Bos taurus with 6 samples.

Results

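Striated muscle carries a small set of miRNAs that are made at high levels in skeletal muscle and heart and at low levels in most other tissues. The values of 7 of them are described here: bta-miR-1, bta-miR-133a, bta-miR-133b, bta-miR-206, bta-miR-208a, bta-miR-208b and bta-miR-499. They were chosen by name among the 512 miRNAs measured in extracellular vesicles (EVs) of bovine granulosa cells, the hormone-producing cells that line the ovarian follicle, and all 7 are listed in each of the 6 EV libraries. The vesicles were precipitated from spent culture medium. The cells came from small growing follicles (3 to 6 mm) of slaughterhouse ovaries and were grown in medium with exosome-depleted bovine serum. Of the libraries, 3 came from cells kept at 37 °C (control-EVs, replicates 1 to 3) and 3 from cells exposed to 42 °C for 24 h (HS-EVs, replicates 1 to 3), HS standing for heat stress. The design text of the series calls the replicates biological, but the number of animals behind each culture is not given in the sources used here. The granulosa cells themselves were not analysed here.

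miRNAs are short RNAs that pair with messenger RNAs through a seed near their 5′ end and lower the output of those messages. bta-miR-1 and bta-miR-133a are transcribed together from paired genes and act in the differentiation and the proliferation of muscle cells, respectively. bta-miR-206, which shares its seed with bta-miR-1, is a skeletal muscle miRNA made together with bta-miR-133b, whose sequence departs from that of bta-miR-133a only at the 3′ end. bta-miR-208a, bta-miR-208b and bta-miR-499 are encoded within genes of myosin heavy chains, the motor proteins of the sarcomere, and take part in the choice between fast and slow myosins.

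The same arrangement was found in the RefSeq annotation of the bovine ARS-UCD2.0 assembly, to which all 7 miRNAs were matched by name. bta-miR-1 and bta-miR-133a have 2 genes each, MIR1-1 beside MIR133A-1 and MIR1-2 beside MIR133A-2, the latter pair within the span of MIB1. MIR206 and MIR133B are neighbours of each other. MIR208A overlaps MYH6 (the alpha cardiac myosin heavy chain), MIR208B overlaps MYH7 (the beta cardiac and slow skeletal form) and MIR499 overlaps MYH7B. The values do not separate the products of the 2 genes of bta-miR-1 or of bta-miR-133a. Positions are not given because this assembly is not the one used by the authors.

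The deposited values are read counts scaled between libraries with edgeR's trimmed mean method (TMM) and are called normalized counts below. The reads behind them were recovered as whole multiples of the smallest value above 0, and 274434 to 2360980 reads on miRNAs were recovered per library. Between 59.9% and 98.6% of these were assigned to bta-miR-1246, which left 34141 to 235634 reads for the other miRNAs, with the fewest in HS-EVs replicate 1. Because the vesicles were sequenced in bulk, fewer vesicles with a miRNA and less of it per vesicle cannot be told apart. HS-EVs replicate 1 stood apart because bta-miR-1246 took the largest share of its reads, and a read counted for 4.11 normalized counts there, against 0.697 to 1.98 in the other 5. Its part in the group comparisons, spread, shares and correlations is shown by values without it.

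bta-miR-1, bta-miR-133a and bta-miR-206 made up most of the striated muscle signal, and bta-miR-133b and bta-miR-208a were at trace level. Together the 7 miRNAs had 2986 reads over the 6 libraries, of which bta-miR-1 took 64.7%, bta-miR-133a 25.2% and bta-miR-206 6.06%. Of the 2986 reads, 1450 came from control-EVs replicate 2, which thus weighs most in these shares and in the ratios over all libraries below. The study called a miRNA detected at 10 or more normalized counts in at least 2 of the 3 libraries of a group. By that rule 5 members were detected in control-EVs (bta-miR-1, bta-miR-133a, bta-miR-206, bta-miR-208b and bta-miR-499) and 3 in HS-EVs (bta-miR-1, bta-miR-133a and bta-miR-206). Over all 512 miRNAs, 37.9% were detected in control-EVs and 36.7% in HS-EVs. The difference for bta-miR-208b and bta-miR-499 lies close to the limit, since both reached 10 normalized counts in 2 control-EVs libraries and in 1 HS-EVs library. At a limit of 5 normalized counts, 5 members were detected in each group.

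By mean normalized count over the 6 libraries, bta-miR-1 ranked 44 of 512 (495), bta-miR-133a ranked 73 (187) and bta-miR-206 ranked 132 (45.1). bta-miR-499 (12.2) and bta-miR-208b (12.1) ranked 185 and 186, and bta-miR-133b (1.34) and bta-miR-208a (0.272) ranked 318 and 451. The miRNAs next above bta-miR-1 were bta-miR-296-3p (519), bta-miR-760-3p (559) and bta-miR-20a (613), and those next below were bta-miR-2284x (434), bta-miR-143 (430) and bta-miR-2904 (429). bta-miR-143 is a miRNA of smooth muscle and stromal cells. Within single libraries the rank of bta-miR-1 ran from 27 in HS-EVs replicate 1 to 75 in HS-EVs replicate 2. Reads of bta-miR-1 outnumbered those of bta-miR-133a in 6 of 6 libraries, and those of bta-miR-133a outnumbered those of bta-miR-206 in 6 of 6. bta-miR-206 was above bta-miR-208b in 6 of 6 libraries and above bta-miR-499 in 5 of 6, the exception being HS-EVs replicate 2. bta-miR-499 and bta-miR-208b did not differ beyond their spread, with a mean difference of 0.114 ± 8.38 normalized counts (SD, n = 6). These comparisons between miRNAs use counts of molecules, not scaled by length, and differences in ligation between miRNAs were not measured.

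**Figure D1:**
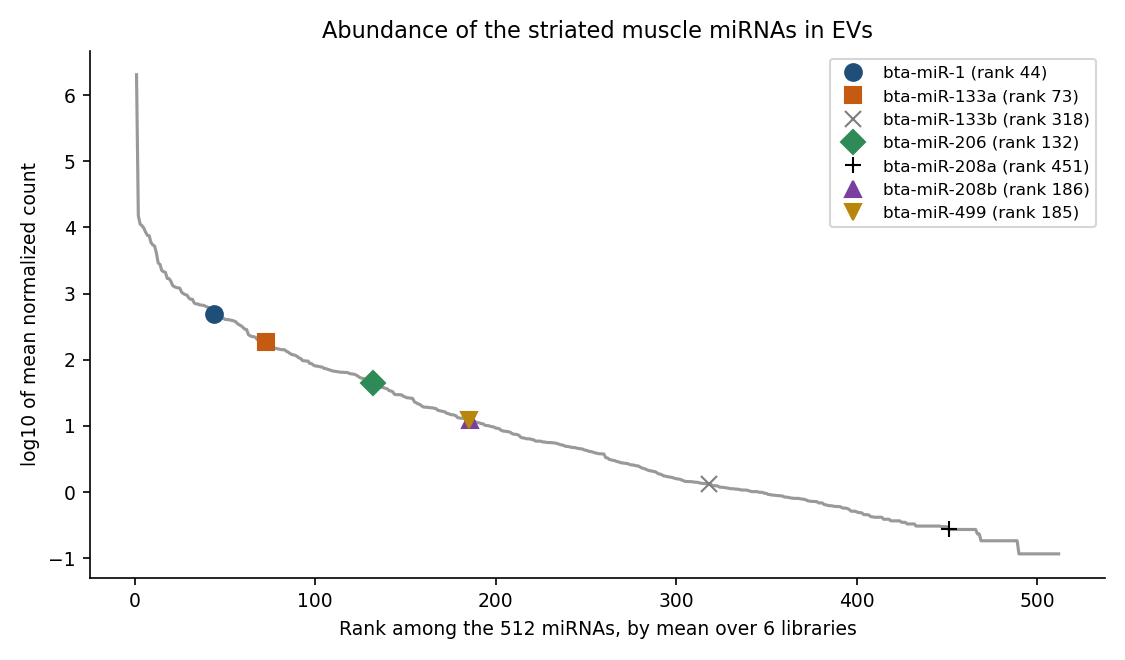
Mean normalized count over the 6 EV libraries (log10, vertical axis) of all 512 miRNAs in order of abundance (grey line), with the 7 striated muscle miRNAs marked. bta-miR-1 stands at rank 44 and bta-miR-133a at rank 73, whereas bta-miR-133b and bta-miR-208a lie at ranks 318 and 451.

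bta-miR-1, the leading miRNA of striated muscle, had 402, 652 and 308 normalized counts in control-EVs replicates 1, 2 and 3, corresponding to 219, 935 and 156 reads. In HS-EVs replicates 1, 2 and 3 it had 1105, 144 and 360 normalized counts, from 269, 131 and 221 reads. The HS-EVs libraries included both the highest and the lowest value, and the control-EVs libraries lay between these. The mean was 454 ± 178 (SD, n = 3) for control-EVs, against 537 ± 504 (SD, n = 3) for HS-EVs. The log2 fold change of HS-EVs over control-EVs was -0.16 (standard error 0.71, 95% interval -1.75 to 1.42, adjusted p = 0.958 from limma), and the exact permutation test of the means gave p = 0.9 (two-sided, where 0.1 is the smallest p that 3 libraries against 3 allow). The arithmetic mean was higher and the mean of the log2 values lower in HS-EVs.

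bta-miR-133a, its partner from the same transcripts, had 123, 262 and 170 normalized counts in the control-EVs libraries (67, 376 and 86 reads). It had 399, 68.2 and 103 in the HS-EVs libraries (97, 62 and 63 reads). The order of the libraries resembled that of bta-miR-1, with HS-EVs replicate 1 highest, control-EVs replicate 2 next and HS-EVs replicate 2 lowest. The means were 185 ± 70.8 (SD, n = 3) and 190 ± 182 (SD, n = 3), and the log2 fold change was -0.32 (standard error 0.67, 95% interval -1.82 to 1.18, adjusted p = 0.944 from limma; exact permutation p = 1.0).

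bta-miR-206, the skeletal muscle relative of bta-miR-1, had 36.7, 55.1 and 43.5 normalized counts in the control-EVs libraries (20, 79 and 22 reads). The HS-EVs libraries had 74.0, 14.3 and 47.3 (18, 13 and 29 reads). The highest and the lowest library were again HS-EVs replicates 1 and 2. The means were 45.1 ± 9.30 (SD, n = 3) and 45.2 ± 29.9 (SD, n = 3), with a log2 fold change of -0.26 (standard error 0.61, 95% interval -1.617 to 1.107, adjusted p = 0.952 from limma; exact permutation p = 1.0).

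The 3 miRNAs lodged in myosin genes were much scarcer. bta-miR-499, from the MYH7B gene, had 11.01, 20.9 and 9.88 normalized counts in the control-EVs libraries (6, 30 and 5 reads) while those of HS-EVs had 8.22, 19.8 and 3.26 (2, 18 and 2 reads). Its high libraries were control-EVs replicate 2 and HS-EVs replicate 2, the latter being the lowest library of bta-miR-1, bta-miR-133a and bta-miR-206. The log2 fold change was -0.60 (standard error 0.62, 95% interval -1.996 to 0.789, adjusted p = 0.873 from limma; exact permutation p = 0.5). bta-miR-208b, from the MYH7 gene of slow muscle and heart, had 5.51, 18.8 and 21.7 normalized counts in the control-EVs libraries (3, 27 and 11 reads). In HS-EVs it had 16.4, 9.90 and 0 (4, 9 and 0 reads), so that the groups overlapped. Its log2 fold change was -1.32 (standard error 0.98, 95% interval -3.51 to 0.88, adjusted p = 0.873 from limma; exact permutation p = 0.4). It was -0.05 without HS-EVs replicate 3, the library with no read, and -2.12 without HS-EVs replicate 1.

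bta-miR-208a, the miRNA of the alpha cardiac myosin gene MYH6, had a single read in HS-EVs replicate 3. In the other 5 libraries it had 0 reads, which with a floor of 3 reads allows up to 12.7 to 87.9 RPM depending on the library. RPM stands here for reads scaled to a total of 1000000, taken over the reads that remain when those of bta-miR-1246 are left out. bta-miR-133b had 1 read in control-EVs replicate 1, 3 in control-EVs replicate 2 and 1 in HS-EVs replicate 1, and 0 in the other 3 libraries. Both lay at or under the floor in every library, so that no fold change is given. Over all libraries, 181 reads of bta-miR-206 stood against 5 of bta-miR-133b, the miRNA of the neighbouring gene, a ratio of 36.2 (95% exact interval 15.2 to 113, counting error only). Because bta-miR-133b and bta-miR-133a are nearly alike, the authors' mapping could have assigned reads of one to the other.

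**Figure D2:**
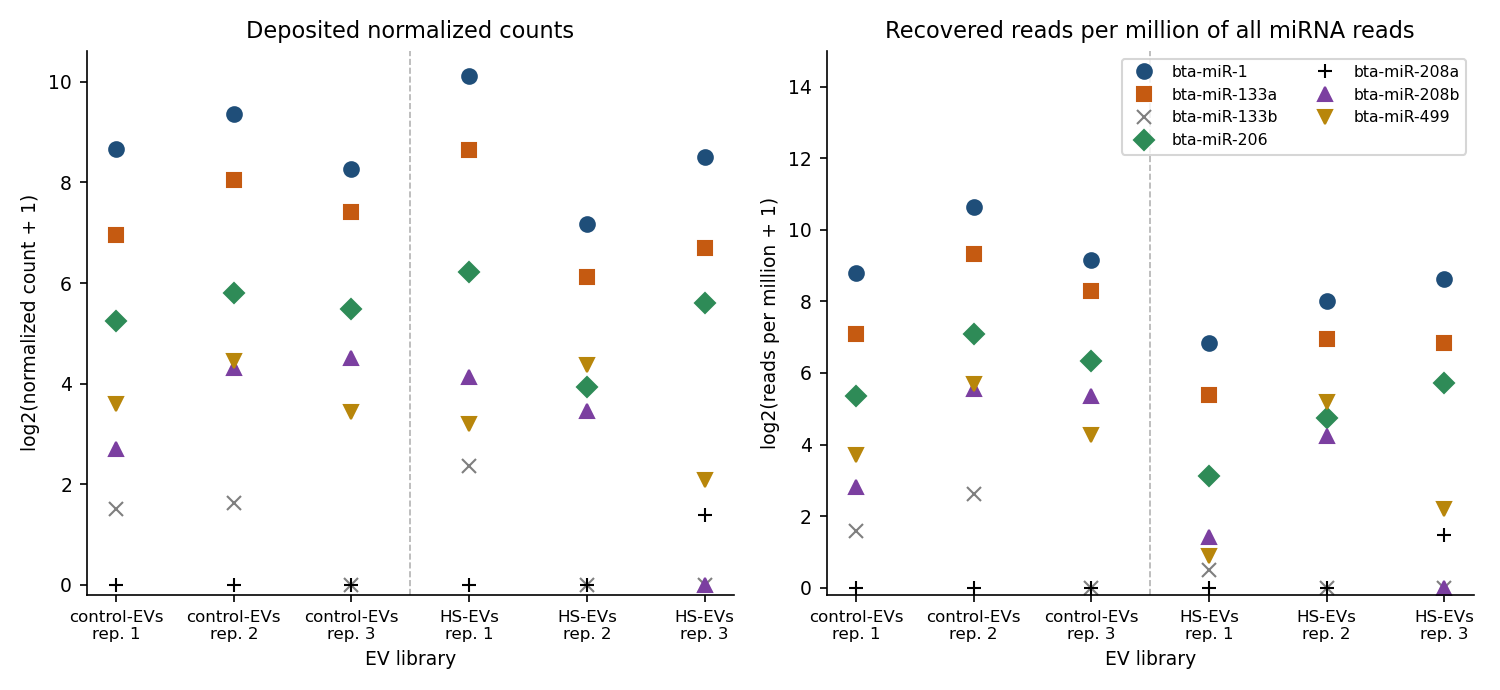
Level of each of the 7 miRNAs in each EV library, as log2(normalized count + 1) on the left and as log2(RPM of all miRNA reads + 1) on the right, with the control-EVs libraries left of the dashed line and the HS-EVs libraries right of it. On the deposited scale HS-EVs replicate 1 has the highest bta-miR-1 value (1105 normalized counts), whereas in RPM of all reads it has the lowest (114).

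In normalized counts, the groups overlapped for each of the 7 members. The study called a miRNA changed when its absolute log2 fold change was at least 1 and its adjusted p at most 0.3. With edgeR, the study named 5 EV miRNAs as enriched in HS-EVs, none of them a member. In limma's test over all 512 miRNAs, 0 of the 7 members passed the study's rule, as did 0% of all miRNAs. At an unadjusted p-value of 0.05 or less, 0 of 7 members and 4.88% of all miRNAs were found, and 0 of 7 members and 6.45% of all miRNAs had groups that did not overlap. edgeR's quasi-likelihood test and DESeq2 on the recovered reads also called 0 members. The median log2 fold change of all 512 miRNAs was 0.01, and that of each of the 5 members with enough reads was below 0 in limma's test, although that of bta-miR-1 was above 0 in edgeR (0.22) and DESeq2 (0.24).

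The size of the differences depended on how HS-EVs replicate 1 was scaled. In RPM of all reads, with bta-miR-1246 in the total, bta-miR-1 had 439, 1591 and 568 in the libraries of control-EVs and 114, 259 and 396 in those of HS-EVs, so that every HS-EVs library lay below every control-EVs library. The same held for bta-miR-133a (134, 640 and 313 against 41.1, 122 and 113 RPM), and thus for 2 of 7 members, beside 4.88% of all miRNAs. On this scale the log2 fold change of bta-miR-1 was -1.69 (standard error 1.01, adjusted p = 0.671 from limma), but the median of all 512 miRNAs also moved to -0.79. The log2 fold changes of bta-miR-133a, bta-miR-206, bta-miR-499 and bta-miR-208b were then -1.84, -1.74, -1.80 and -2.69, each with an adjusted p of 0.671 from limma. bta-miR-208b had an unadjusted p of 0.0248 on that scale, the only member at 0.05 or less, beside 3.32% of all miRNAs. When reads other than those of bta-miR-1246 served as the base, the log2 fold change of bta-miR-1 was -0.06, and HS-EVs replicate 1 was again its highest library (7879 RPM on that base, against 1061 to 3968 in the others). Without HS-EVs replicate 1, on the deposited scale, the log2 fold changes of bta-miR-1, bta-miR-133a and bta-miR-206 were -0.92, -1.07 and -0.74 (adjusted p = 0.784, 0.680 and 0.784 from limma). Without HS-EVs replicate 2 they were 0.54, 0.20 and 0.40, so that a single library decided their sign.

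**Figure D3:**
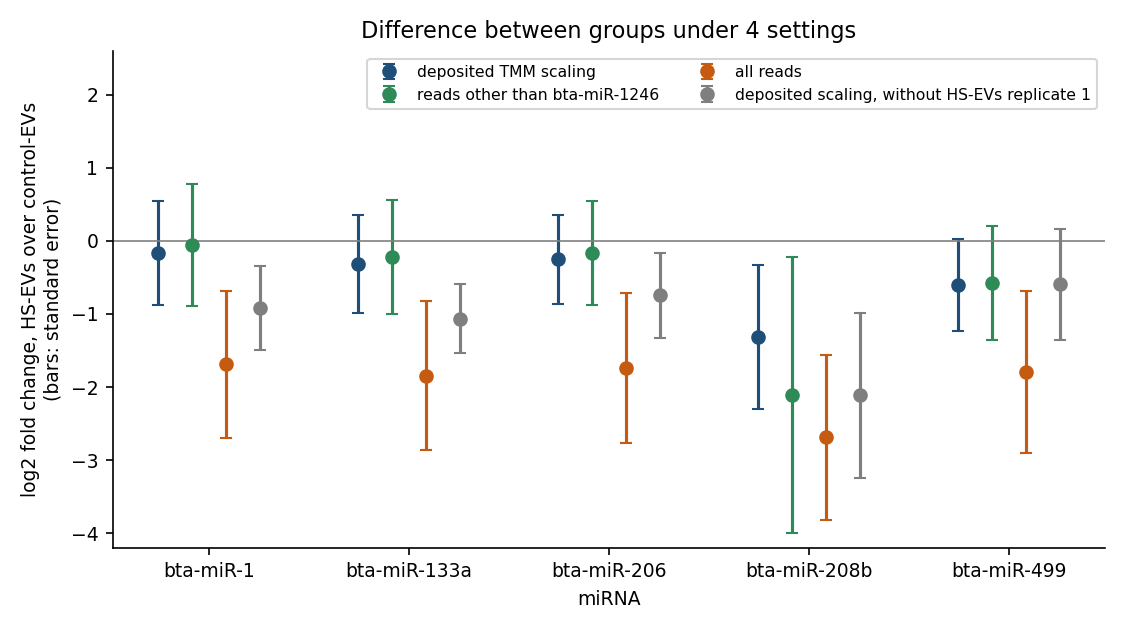
Log2 fold change of HS-EVs over control-EVs (vertical axis, bars showing the standard error from limma) for the 5 members with enough reads, under the deposited TMM scaling, scaling by reads other than bta-miR-1246, scaling by all reads, and the deposited scaling without HS-EVs replicate 1. The values of bta-miR-1 run from -1.69 under scaling by all reads to -0.06 under scaling by reads other than bta-miR-1246.

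bta-miR-1, bta-miR-133a and bta-miR-206 varied more between the 3 HS-EVs libraries than most miRNAs did, but the size of this rested on single libraries. The SD over the mean of the normalized counts within HS-EVs was 94.0% for bta-miR-1, 95.7% for bta-miR-133a and 66.2% for bta-miR-206, beside a median of 29.9% over the 191 other miRNAs with a mean of 10 or more normalized counts. Of these 191 miRNAs, 7 had a larger value than bta-miR-1, 7 than bta-miR-133a and 20 than bta-miR-206. Without HS-EVs replicate 1 the values were 60.6%, 28.5% and 75.7%, with 11, 68 and 4 of the 191 miRNAs above them and a median of 19.8%. The spread of bta-miR-133a thus came mostly from that library. Without HS-EVs replicate 2, that of bta-miR-206 was 31.1%, close to the median of 28.9%, and 92 of the 191 miRNAs had a larger one. Counting error alone would give 7.82% for bta-miR-1, 13.2% for bta-miR-133a and 25.4% for bta-miR-206. Within control-EVs the values were 39.1%, 38.3% and 20.6%, beside a median of 30.7%, and 72, 74 and 141 of the 191 miRNAs had larger ones. Without control-EVs replicate 2 they were 18.7%, 22.7% and 11.9%. The spread of bta-miR-206 in control-EVs was thus close to what counting gives (17.7%). For bta-miR-208b and bta-miR-499 the HS-EVs values of 94.3% and 81.4% stood against counting errors of 58.2% and 43.2%. That of bta-miR-208b was 35.1% without HS-EVs replicate 3. Without HS-EVs replicate 1 or 2 it was 141%, a value fixed by HS-EVs replicate 3, the library with no read, and not a measured spread. Over all 6 libraries, bta-miR-1 ranged 7.67-fold, bta-miR-133a 5.84-fold and bta-miR-206 5.17-fold. Without HS-EVs replicate 1 the ranges were 4.52-fold, 3.84-fold and 3.85-fold, with HS-EVs replicate 2 as the low end.

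Summed over the 7 members, the share of all miRNA reads was 0.0634% (95% Wilson interval 0.0568% to 0.0708%), 0.247% (0.234% to 0.260%) and 0.102% (0.0908% to 0.115%) in control-EVs replicates 1, 2 and 3. In HS-EVs replicates 1, 2 and 3 it was 0.0166% (0.0150% to 0.0183%), 0.0460% (0.0404% to 0.0523%) and 0.0566% (0.0507% to 0.0632%). Every HS-EVs library thus lay below every control-EVs library by this measure. When the reads of bta-miR-1246 were left out of the total, the members took 0.412%, 0.615% and 0.381% in the libraries of control-EVs and 1.15%, 0.189% and 0.364% in those of HS-EVs. On that base the groups overlapped, and HS-EVs replicate 1 moved from the lowest to the highest library. The mean on the second base was 0.469% ± 0.127 (SD, n = 3) for control-EVs, against 0.566% ± 0.509 (SD, n = 3) for HS-EVs. Without HS-EVs replicate 1 the latter was 0.277% ± 0.124 (SD, n = 2), below control-EVs, so that this library decided the direction. No test was made on these sums, because the members were chosen together.

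Within a library, the proportions of bta-miR-1, bta-miR-133a and bta-miR-206 varied less than their normalized counts, which ranged over 7.67-fold, 5.84-fold and 5.17-fold. Reads of bta-miR-1 over bta-miR-133a gave ratios of 3.27, 2.49 and 1.81 in control-EVs replicates 1, 2 and 3 and of 2.77, 2.11 and 3.51 in HS-EVs replicates 1, 2 and 3, a 1.93-fold range. The ratio over all libraries was 2.57 (95% exact interval 2.36 to 2.80). The intervals of control-EVs replicate 3 (1.39 to 2.39) and HS-EVs replicate 3 (2.64 to 4.72) did not contain it, so that the ratio was similar but not fixed within counting error. Reads of bta-miR-1 over bta-miR-206 gave ratios between 7.09 and 14.9, a 2.11-fold range, and the interval of each library contained the overall ratio of 10.7. For bta-miR-133a over bta-miR-206 the ratios ran from 2.17 to 5.39, a 2.48-fold range, around an overall 4.15, which the interval of HS-EVs replicate 3 (1.38 to 3.50) did not contain. As a background, the ratios of bta-miR-1 to each of the 189 other miRNAs with a mean of 10 or more and a read in every library ranged over a median of 9.87-fold, and 0 of the 189 had a range below those to bta-miR-133a and bta-miR-206. For bta-miR-133a the median was 7.82-fold, and 3 of the 189 had a range below that to bta-miR-206. Ratios to scarce miRNAs include more counting error.

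bta-miR-499 did not keep such a proportion to bta-miR-1. The ratio of bta-miR-1 to bta-miR-499 was 36.5, 31.2 and 31.2 in the libraries of control-EVs, close to the overall 30.7. In HS-EVs replicates 1 and 3 it was 134 (95% exact interval 36.9 to 1116) and 110 (30.2 to 918), from 2 reads of bta-miR-499 in each. In HS-EVs replicate 2 it was 7.28 (4.43 to 12.7), from 131 reads of bta-miR-1 and 18 of bta-miR-499, outside the intervals of the other 5 libraries. Nor was the ratio of bta-miR-1 to bta-miR-208b steady, with values of 73.0, 34.6 and 14.2 in the libraries of control-EVs, 67.2 and 14.6 in HS-EVs replicates 1 and 2, and 221 reads of bta-miR-1 against 0 of bta-miR-208b in HS-EVs replicate 3.

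**Figure D4:**
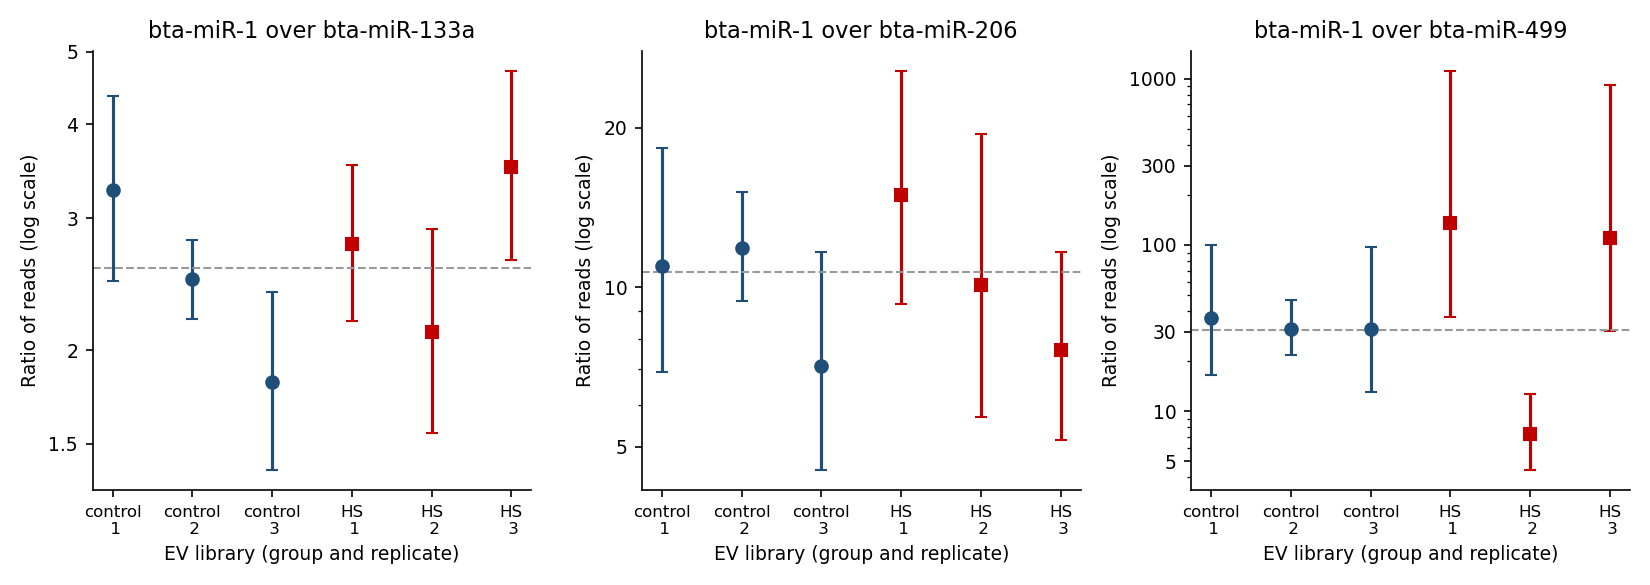
Ratio of the reads of bta-miR-1 to those of bta-miR-133a, bta-miR-206 and bta-miR-499 in each EV library (log scale), with 95% exact intervals for counting error as bars and the ratio over all libraries as a dashed line. The ratio to bta-miR-133a stays between 1.81 and 3.51, whereas that to bta-miR-499 drops to 7.28 in HS-EVs replicate 2.

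The levels of the 3 abundant members moved together from library to library on the deposited scale, although none of the relations passed an adjusted p of 0.05. Correlations were computed on log2(normalized count + 1) over the 6 libraries for the 10 pairs of the 5 members with a mean of 10 or more, with Benjamini-Hochberg adjustment over the 10. For bta-miR-1 and bta-miR-133a, Pearson's r was 0.93 (exact permutation p = 0.0111, adjusted 0.0556) and Spearman's rho was 0.83 (exact permutation p = 0.0583, adjusted 0.194). For bta-miR-1 and bta-miR-206, r was 0.92 (exact permutation p = 0.0111, adjusted 0.0556) and rho was 0.83 (exact permutation p = 0.0583, adjusted 0.194). For bta-miR-133a and bta-miR-206, r was 0.86 (exact permutation p = 0.0194, adjusted 0.0648) and rho was 0.83 (exact permutation p = 0.0583, adjusted 0.194). Without HS-EVs replicates 1 and 2, the 2 libraries farthest from the median of the measure on the x axis, r over the remaining 4 libraries was 0.69, 0.62 and 0.62. The correlations thus rested in good part on these libraries, and 4 libraries are too few for a test. On deviations from the group means, r was 0.93, 0.93 and 0.85.

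bta-miR-499 and bta-miR-208b had weaker correlations with these 3 on the deposited scale. With bta-miR-1, r was -0.19 for bta-miR-499 (rho -0.09, exact permutation p = 0.738 and 0.919, adjusted 0.922 and 1.0) and 0.21 for bta-miR-208b (rho 0.09, exact permutation p = 0.635 and 0.919, adjusted 0.907 and 1.0). Between bta-miR-208b and bta-miR-499, r was 0.73 (exact permutation p = 0.0958, adjusted 0.240) and rho was 0.37 (exact permutation p = 0.497, adjusted 0.940), and r was -0.45 without control-EVs replicate 1 and HS-EVs replicate 3, so that this relation rested on 2 libraries. Without HS-EVs replicates 1 and 2, r with bta-miR-1 was 0.68 for bta-miR-499 and 0.28 for bta-miR-208b, over 4 libraries. For bta-miR-133a and bta-miR-499, r was 0.02 over the 6 libraries, 0.87 over those 4, and 0.82 in RPM of all reads (exact permutation p = 0.0458, adjusted 0.0917), so that the relation changed with the libraries and the scale. Few reads lie behind both. The other 3 pairs had r between -0.42 and 0.52, with adjusted p-values between 0.618 and 0.979 (exact permutation).

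Scaling bears on these correlations, since all values of a library share 1 factor. On the deposited scale, the r of bta-miR-1 with the 191 other miRNAs of that level had a median of -0.12, and 1 of the 191 passed 0.9. In RPM of all reads the median was 0.78 and 8 of the 191 passed 0.9. The r of bta-miR-1 with bta-miR-133a and bta-miR-206 was 0.96 and 0.97 on that scale (exact permutation p = 0.0125 and 0.00556, adjusted 0.0463 for both), where most miRNAs correlated with bta-miR-1, and it was 0.73 and 0.93 without HS-EVs replicate 1 and control-EVs replicate 2. In RPM without bta-miR-1246, r was 0.92 for both pairs (exact permutation p = 0.0139 and 0.0264, adjusted 0.132 for both), beside a median of -0.17 over the 191, and 0.54 and 0.28 without HS-EVs replicates 1 and 2.

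**Figure D5:**
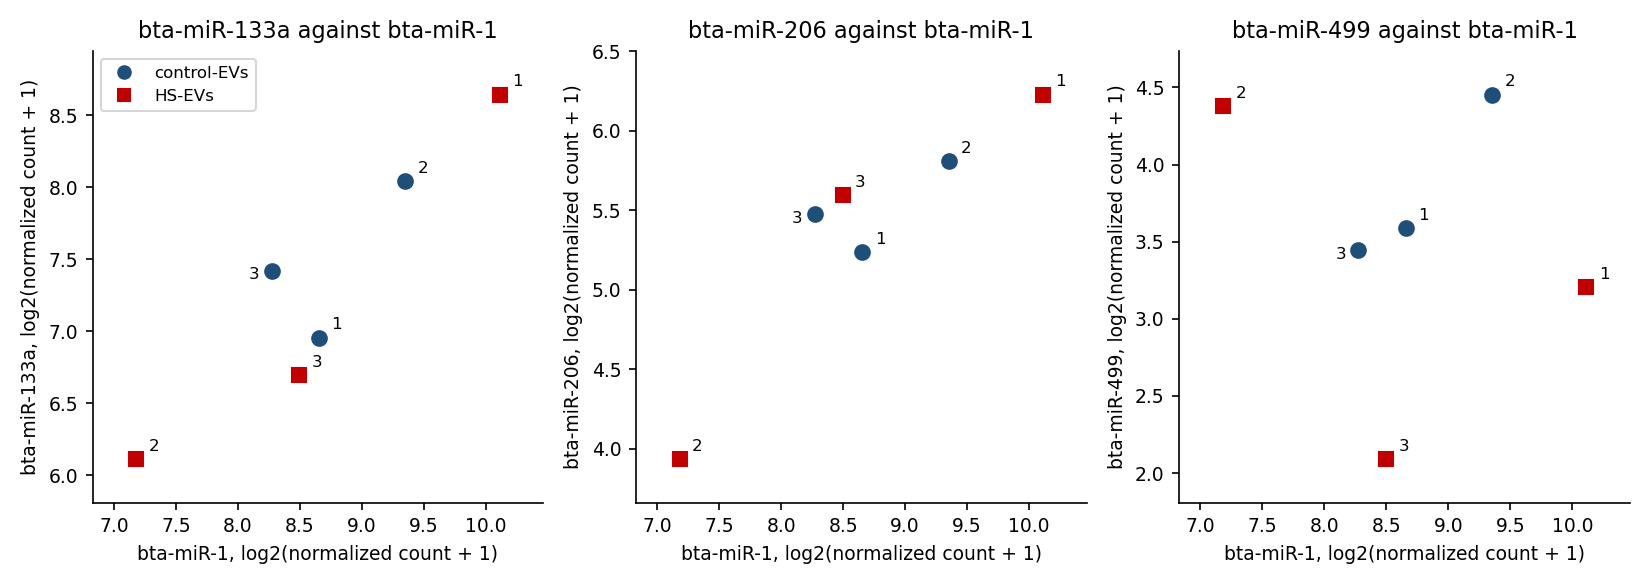
Levels of bta-miR-133a, bta-miR-206 and bta-miR-499 against bta-miR-1 in the 6 EV libraries, as log2(normalized count + 1), with circles for control-EVs, squares for HS-EVs and the replicate number beside each point. Over the 6 libraries, r with bta-miR-1 was 0.93 for bta-miR-133a and 0.92 for bta-miR-206 (adjusted exact permutation p = 0.0556 for both). For bta-miR-499 it was -0.19, with HS-EVs replicate 2 at the upper left. Without HS-EVs replicates 1 and 2, r was 0.69, 0.62 and 0.68 for bta-miR-133a, bta-miR-206 and bta-miR-499.

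Among the other miRNAs with a mean of 10 or more normalized counts, those most like the summed level of the members over the 6 libraries were bta-let-7e (r = 0.94), bta-miR-199c (0.89), bta-miR-197 (0.85), bta-miR-423-5p (0.83) and bta-miR-877 (0.80), beside a median of -0.14. These values served to pick them and carry no test. Their amplitudes differed: bta-let-7e stayed between 989 and 1339 normalized counts, while bta-miR-199c ran from 9.18 to 41.1, in each case with HS-EVs replicate 1 highest. The list depended on libraries and scale. Without HS-EVs replicate 1, bta-let-7e stayed first (r = 0.97), followed by bta-let-7b (0.93), bta-miR-224 (0.92), bta-miR-323b-3p (0.92) and bta-miR-6529a (0.91). In RPM of all reads the first 5 were bta-miR-877 (0.97), bta-miR-323b-3p (0.96), bta-miR-199c (0.95), bta-miR-432 (0.95) and bta-miR-6529a (0.94), beside a median of 0.82. bta-miR-199c, bta-miR-197 and bta-miR-877 had 5 to 46 reads per library.

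miRNAs listed as markers of other cell types were compared with the members. How specific each list is to its cell type was not tested. The 10 granulosa cell miRNAs listed summed to 9815 to 17517 normalized counts per library in control-EVs and 9487 to 16951 in HS-EVs, and 7 of the 10 were detected in at least 1 group. Most of this was bta-miR-21-5p (mean 10626), bta-miR-202 (1682) and bta-miR-31 (1236), whereas the other 7, from bta-miR-424-5p (80.0) down, had lower means than bta-miR-1. bta-miR-212 and bta-miR-383, also on that list, had at most 1 read in any library. The 7 muscle miRNAs summed to 553 to 1011 normalized counts in control-EVs and to 256 to 1607 in HS-EVs. The liver list of 5 was led by bta-miR-122, the main miRNA of hepatocytes (mean 14997), and summed to 13759 to 29337 in control-EVs and 8909 to 15129 in HS-EVs. Of its other members, bta-miR-148a had a mean of 2138 and the rest had 79.1 (bta-miR-192) or less. bta-miR-122 was above bta-miR-21-5p in the 3 control-EVs libraries and in HS-EVs replicate 1, and below it in HS-EVs replicates 2 and 3 (9840 against 13656 and 7524 against 13342 normalized counts). The red blood cell list (6 miRNAs, 4 detected, led by bta-miR-16b) summed to 4257 to 9031 over all libraries, and its erythroid members bta-miR-451 and bta-miR-144 had 9 to 37 and 2 to 9 reads per library. The white blood cell list (6 of 6 detected, led by bta-miR-155) summed to 8183 to 15949, nearly all of it bta-miR-155 (mean 11182), whereas the other 5 had means of 21.5 (bta-miR-142-3p) to 181 (bta-miR-142-5p), below bta-miR-1.

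Of the remaining lists, smooth muscle and stroma (5 of 6 detected, led by bta-miR-199a-3p) summed to 1116 to 1671, and endothelium (2 of 2 detected, led by bta-miR-126-3p) to 129 to 859. The list of neuronal and neuroendocrine miRNAs had 3 detected of the 5 that are in the files, was led by bta-miR-128 (mean 669) and summed to 486 to 1047, and its other 4 had means of 64.3 (bta-miR-7) or less. None of the 6 epithelial miRNAs was detected, and their sum was 8.22 to 20.9. Of 6 miRNAs related to muscle but not specific to it, 4 were in the files and 3 were detected, namely bta-miR-378, bta-miR-378c and bta-miR-486, the last of which is also on the red blood cell list. The r of bta-miR-1 with bta-miR-378, which led the muscle-related list, was -0.12 (rho -0.03, exact permutation p = 0.853 and 1.0, adjusted 0.875 and 1.0).

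bta-miR-1 was also compared with the leading miRNA of each of the other 8 lists. The largest correlation in size was a negative one with bta-miR-21-5p (r = -0.73, exact permutation p = 0.113, adjusted 0.716; rho = -0.89, exact permutation p = 0.0333, adjusted 0.3 over the 9 comparisons), and r was -0.47 without HS-EVs replicates 1 and 2. With bta-miR-122, r was 0.36 (exact permutation p = 0.486, adjusted 0.716) and rho was 0.43 (exact permutation p = 0.419, adjusted 0.755). With bta-miR-155, r was -0.57 (exact permutation p = 0.242, adjusted 0.716) and rho was -0.66 (exact permutation p = 0.175, adjusted 0.525). With bta-miR-128, r was 0.44 (exact permutation p = 0.388, adjusted 0.716) and rho was 0.77 (exact permutation p = 0.103, adjusted 0.463). With bta-miR-16b and bta-miR-126-3p, r was 0.38 and 0.40 (adjusted exact permutation p = 0.716 for both). None of the 9 passed an adjusted p of 0.05 on any of the 3 scales. In RPM without bta-miR-1246, r with bta-miR-21-5p was -0.79 (exact permutation p = 0.0306, adjusted 0.275) and rho was -0.94 (exact permutation p = 0.0167, adjusted 0.15). In RPM of all reads its sign turned (r = 0.72, exact permutation p = 0.164, adjusted 0.211). On that scale r was 0.89 with bta-miR-122 and 0.87 with bta-miR-16b (exact permutation p = 0.0264 and 0.0333). It was 0.87 with bta-miR-199a-3p and 0.86 with bta-miR-128 (exact permutation p = 0.0319 and 0.0375). The adjusted p was 0.0844 for each of these, and the median r over the 191 miRNAs was 0.78. Without HS-EVs replicate 1 and control-EVs replicate 2, r was 0.41, 0.21, 0.20 and -0.004 in the same order. The part of tissues other than granulosa cells in the levels of the muscle miRNAs was not tested.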

How the data were processed

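According to the study's methods, the authors trimmed the reads (cutadapt 1.11), collapsed reads with the same unique molecular identifier, mapped them with Bowtie2 2.2.2 to the bovine genome (UMD3.1) and to miRBase, and normalized the counts in edgeR (TMM). The authors deposited 1 normalized count per miRNA and library, used here as a signal. Whole reads were recovered from the values (100% whole within 0.001), assuming that the smallest value above 0 is 1 read. Their totals exceed the reads on annotated miRNAs that the study reports. The 15 pairs of libraries differed beyond sampling noise (chi-square per degree of freedom of 16.5 or more).

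The main test was limma 3.58.1 (R 4.3.3) over all 512 miRNAs, on log2(normalized count + 1), without filter or block, with Benjamini-Hochberg adjustment over all. Fold changes are on this scale, where those of scarce miRNAs depend on the pseudocount. edgeR 4.0.16 and DESeq2 1.42.0 on recovered reads, other scalings, pseudocounts, a filter and left-out libraries were alternatives, and the procedure was tested on simulated data. Single values were compared by exact permutation. Intervals (95%, Wilson or exact) and the floor of 3 reads stand for counting error alone. The p-values of group differences rest on the spread among these 3 and 3 libraries, which limma moderates over all miRNAs. Those of correlations rest on permuted pairings of the 6 libraries.

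The members and lists were chosen with earlier results of these data known. Named were all members, the marker lists through their leading miRNA, the 5 miRNAs most like the members' sum, and the 3 next above and below bta-miR-1. bta-miR-202, bta-miR-31, bta-miR-424-5p, bta-miR-212, bta-miR-383, bta-miR-451, bta-miR-144, bta-miR-378c, bta-miR-486, bta-miR-142-3p, bta-miR-142-5p, bta-miR-7, bta-miR-148a, bta-miR-192 and the most similar miRNAs on other scales or without a library were named after their values were seen. Mature sequences were not used here.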

Additional observations from a re-analysis of the deposited data

How the results depend on the processing

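No member was called under any alternative run, including an adjusted p of 0.05 and each left-out library. Over all 512 miRNAs, limma's 0 calls (25 at an unadjusted p of 0.05 or less) became 1 with a pseudocount of 0.5, 2 with limma's trend, 1 with scaling by reads other than bta-miR-1246, and 3 with edgeR's quasi-likelihood test, both with the authors' factors and with its default TMM. DESeq2 gave 0, and leaving out 1 library gave 0 to 4, the 4 without control-EVs replicate 2. With the replicate number as a block, 0 miRNAs were called, and the smallest adjusted p of a member was 0.835. Deviations of same-numbered libraries correlated by 0.14, 0.14 and 0.08, and nothing in the labels or methods ties the numbers to shared cultures.

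The log2 fold change of bta-miR-1 changed sign with edgeR (0.22 and 0.16) and DESeq2 (0.24); the cause was not tested. With 1 library left out it ran from -0.92 to 0.54 for bta-miR-1, from -1.07 to 0.20 for bta-miR-133a, from -0.74 to 0.40 for bta-miR-206, from -2.12 to -0.05 for bta-miR-208b and from -1.18 to -0.04 for bta-miR-499. Members detected in HS-EVs rose to 5 at a limit of 5 normalized counts. With 1 library left out, 3 to 4 were detected in control-EVs (3 without replicate 2) and 3 in HS-EVs. The mean share of the members was 0.137% of all reads in control-EVs (0.0827% without replicate 2, 0.174% without replicate 1) and 0.0397% in HS-EVs (0.0313% to 0.0513%), against 0.469% and 0.566% of reads other than bta-miR-1246 (0.396% to 0.514% and 0.277% to 0.755% with 1 library left out). The median SD over the mean of the 5 abundant members ran from 18.7% to 43.9% in control-EVs and from 71.9% to 95.6% in HS-EVs with 1 library left out.

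Of the 10 pairs of members, 0 passed an adjusted p of 0.05 for r (3 at an unadjusted p of 0.05 or less, 0 of them without control-EVs replicate 2), and 3 did in RPM of all reads. With 1 library left out, r ran from 0.86 to 0.96 for bta-miR-1 and bta-miR-133a, from 0.89 to 0.96 for bta-miR-1 and bta-miR-206, and from 0.81 to 0.96 for bta-miR-133a and bta-miR-206. With 1 library or the 2 farthest left out, or on another scale, the sign changed only in pairs with bta-miR-499 or bta-miR-208b. Without control-EVs replicate 2 and HS-EVs replicates 1 and 2, however, r over the remaining 3 libraries was negative for the 3 pairs above. It was -0.71 for bta-miR-1 and bta-miR-133a, -0.58 for bta-miR-1 and bta-miR-206, and -0.17 for bta-miR-133a and bta-miR-206. For bta-miR-1 and bta-miR-499, r was 0.74 on all reads, 0.68 without the 2 farthest libraries and -0.45 to 0.28 with 1 left out. For bta-miR-206 and bta-miR-499 these were 0.70, 0.22 and -0.68 to 0.0386. For bta-miR-133a and bta-miR-499, r was -0.0470 on reads other than bta-miR-1246, -0.0580 on deviations, 0.82 on all reads, 0.87 without the 2 farthest libraries and -0.44 to 0.48 with 1 left out. For bta-miR-206 and bta-miR-208b it was -0.0575 on reads other than bta-miR-1246, -0.0144 on deviations and -0.10 to 0.48. For bta-miR-208b and bta-miR-499 it was -0.45 without the 2 farthest libraries and -0.0494 to 0.83 with 1 left out. The correlations of bta-miR-1 with marker miRNAs on other scalings, and the spreads, shares of reads other than bta-miR-1246 and most similar miRNAs with 1 library left out, were chosen after seeing the data. Depth limits bta-miR-208b, bta-miR-499, bta-miR-133b and bta-miR-208a most.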
